A study of Mus musculus with 8 samples.

Results

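The 8 genes described here encode the scavenger receptors of macrophages, namely Marco, Msr1, Cd36, Cd68, Mrc1, Cd163, Scarb1 and Stab1. They were chosen by symbol in the annotated matrix of the arrays, which gave 11 probes for 8 of the 21175 gene symbols on the array, and 10 of these 11 probes were bright enough to be tested. RNA of whole lung from 4 wild-type and 4 Scgb3a2-transgenic mice was compared, all male, of strain C57BL/6, without treatment and 8 to 10 weeks of age by the sample labels. The transgenic mice carry mouse Scgb3a2 driven by the human SP-C gene promoter, which is active in alveolar type II cells, and they descend from a single founder, so that an effect of the insertion site cannot be told apart from that of the transgene. Each of 8 Agilent two-color arrays carried the RNA of 1 mouse in Cy5 and a common lung RNA pool in Cy3. The question was whether lungs that overexpress SCGB3A2, a small secreted protein for which MARCO is a reported receptor, differ in the receptors by which macrophages take up particles and modified lipids.

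Scavenger receptors are surface and endosomal proteins that bind polyanionic or modified ligands such as bacterial wall components, oxidized lipoproteins, inhaled particles and dying cells. In the lung they are carried mostly by the alveolar macrophages in the air spaces and the interstitial macrophages in the walls, and several are shared with endothelium, fat cells or epithelium. They fall into several structural classes and are named together for what they bind and not for descent.

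Promoter sequence is shown for 4 of the genes, for Marco as the reported receptor of SCGB3A2, for Cd68, which lay far below the reference pool, and for Mrc1 and Cd163, which are set against each other as a pair. The sequences are from RefSeq on GRCm38.p6 and run 5' to 3' along the gene, from 250 bases before to 50 bases after its start. The table held 6 of the 8 genes, without Msr1 and Scarb1. The stretches are chr1:120504975-120505274 on the minus strand for Marco, chr11:69666121-69666420 on the minus strand for Cd68, chr2:14229164-14229463 on the plus strand for Mrc1 and chr6:124304401-124304700 on the plus strand for Cd163. Capitals mark GAGGAA or its reverse complement TTCCTC, the core that the macrophage factor PU.1 binds.
Marco: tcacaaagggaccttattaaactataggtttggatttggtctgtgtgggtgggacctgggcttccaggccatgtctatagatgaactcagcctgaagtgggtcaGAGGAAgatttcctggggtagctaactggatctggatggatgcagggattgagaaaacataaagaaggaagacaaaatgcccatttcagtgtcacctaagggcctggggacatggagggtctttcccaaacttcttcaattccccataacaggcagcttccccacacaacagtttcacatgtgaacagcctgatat
Cd68: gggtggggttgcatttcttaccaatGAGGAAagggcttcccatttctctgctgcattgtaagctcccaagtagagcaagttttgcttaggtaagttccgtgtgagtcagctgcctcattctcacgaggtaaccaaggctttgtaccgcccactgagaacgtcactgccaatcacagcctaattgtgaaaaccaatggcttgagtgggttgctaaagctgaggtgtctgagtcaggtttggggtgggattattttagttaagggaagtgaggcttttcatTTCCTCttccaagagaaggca
Mrc1: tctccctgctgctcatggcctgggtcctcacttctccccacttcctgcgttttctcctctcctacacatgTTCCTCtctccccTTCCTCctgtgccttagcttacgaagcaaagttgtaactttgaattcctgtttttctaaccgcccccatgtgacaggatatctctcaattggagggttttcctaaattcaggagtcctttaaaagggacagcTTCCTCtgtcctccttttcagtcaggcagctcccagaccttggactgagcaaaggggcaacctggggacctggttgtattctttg
Cd163: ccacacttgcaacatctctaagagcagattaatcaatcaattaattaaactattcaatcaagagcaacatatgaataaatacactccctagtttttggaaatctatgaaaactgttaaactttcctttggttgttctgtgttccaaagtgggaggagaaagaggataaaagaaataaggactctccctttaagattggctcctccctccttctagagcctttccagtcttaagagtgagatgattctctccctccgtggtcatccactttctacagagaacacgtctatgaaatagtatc
GAGGAA was searched on both strands. It occurred 3 times in the window of Mrc1, at 180, 167 and 35 bases before the start, 2 times in that of Cd68, at 225 bases before and 29 after it, and 1 time in that of Marco, at 146 bases before it. Stab1, which is not shown, held it at 30 bases before its start, and Cd36 and Cd163 had no match. The motif was present in 28.3% of all 32851 promoters of this length. TGANTCA, the AP-1 motif, where N is any base, occurred 2 times in Cd68 and in none of the other 5 promoters, against 7.81% of all promoters. AGGTCA, the repeat of nuclear receptor sites, had 1 match in Cd36, against 16.3% of all, and GGGCGG had 2 matches in Cd36 and 1 each in Cd68 and Mrc1, against 35.7%. TATAAA was found in none of the 6, against 13.6% of all. These are matches of letters and say nothing of binding.

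Between 32271 and 34720 probes per array were well above background in the sample channel, no spot was saturated, and 1.72% to 6.46% of spots carried a flag and were left out. Each of the 4 slides held 1 array of each genotype, and the slides were scanned on 2 days. Tests were run on the 32653 of 41174 probes that were well above background on 4 or more arrays in Cy5, with 2 or more values for each genotype. Scgb3a2 itself had a log2 fold change, transgenic minus wild-type, of 0.88 (SE, the standard error, 0.24; unadjusted p = 0.0033 and adjusted p = 1.00 by limma). Bright enough to be tested were 11 of 12 macrophage markers and 10 of the 11 alveolar macrophage markers on the array, beside 18437 of all 21175 genes. In whole lung RNA, fewer cells of a type and less RNA per cell cannot be told apart.

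In the values that follow, a level is the log2 ratio of a mouse's signal to that of the pool, so that 0 is the level of the pool, and replicates are given in the order 1 to 4. For no receptor gene did transgenic lungs differ from wild-type lungs beyond the spread between mice. Marco, which encodes a collagen-like class A receptor of alveolar macrophages that binds bacteria and inert particles, was at -0.51, -0.38, 0.11 and -0.43 in the wild-type mice. In the transgenic mice it was at 0.34, -0.20, -0.24 and -0.60. The highest and the lowest of the 8 values were both from transgenic mice, replicates 1 and 4, and the genotypes overlapped. The means were -0.30 ± 0.28 (SD, n = 4) and -0.17 ± 0.39 (SD, n = 4), a log2 fold change of 0.13 (SE 0.19, unadjusted p = 0.522 and adjusted p = 1.00 by limma). The 95% interval ran from 0.813-fold to 1.47-fold, and the exact two-sided permutation p was 0.571, the smallest possible value with 4 mice per genotype being 0.0286. On single slides the difference ran from -0.71 to 0.85, and it was positive on 3 of 4 slides.

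**Figure D1:**
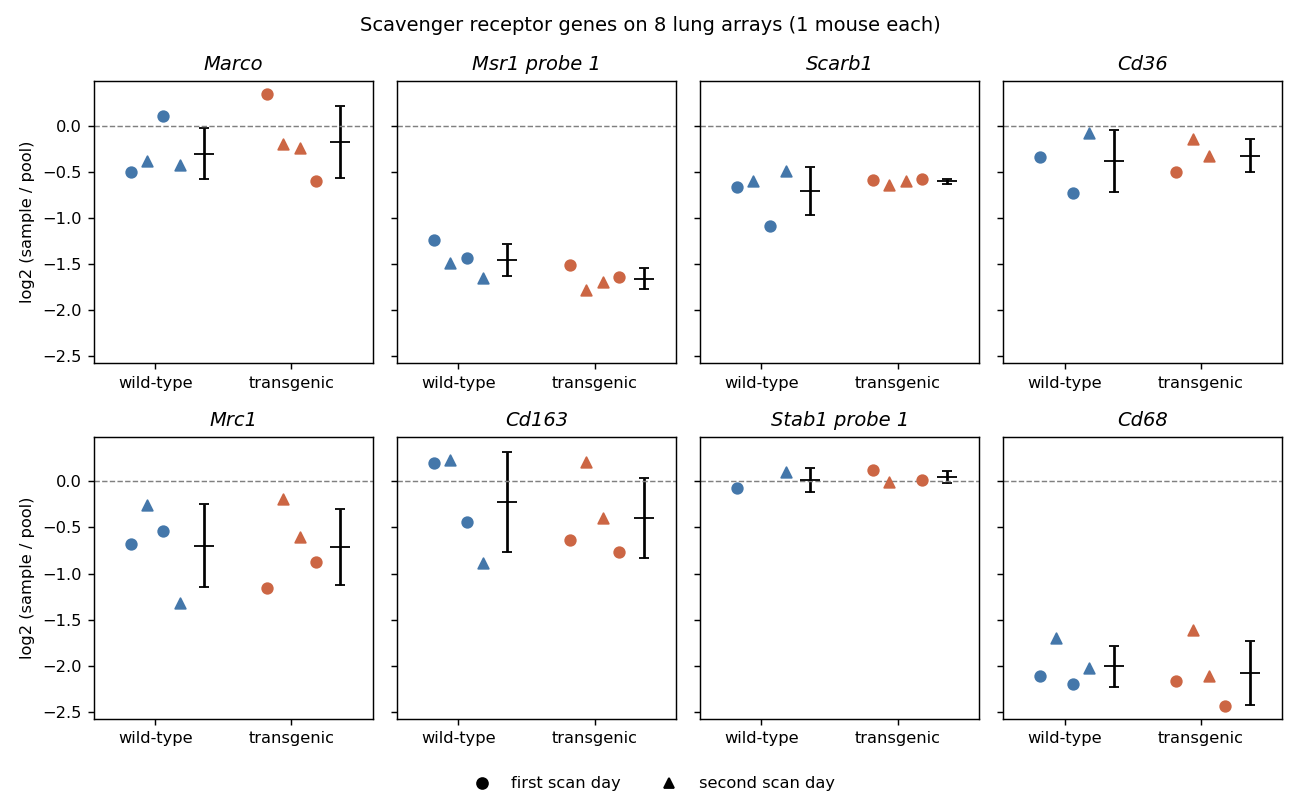
Log2 ratio of sample over pool (vertical axis) of the brightest tested probe of each of the 8 receptor genes in wild-type (blue) and transgenic (orange) lungs. Each point is 1 mouse, circles and triangles are the first and the second scan day, black bars are the mean and SD, and the dashed line is the pool. The genotypes overlap in every panel, and Cd68 and Msr1 lie far below the dashed line in all mice, with Cd68 between -2.43 and -1.61.

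Msr1, the class A receptor SR-A that takes up modified low density lipoprotein, was measured by 3 probes, and the 2 that were tested differed in direction. The brightest, probe 1, was at -1.24, -1.49, -1.44 and -1.65 in wild-type mice. It was at -1.51, -1.78, -1.69 and -1.64 in transgenic mice. The transgenic values were mostly the lower, but wild-type replicate 4 lay among them. The log2 fold change was -0.20 (SE 0.11, 95% interval -0.45 to 0.05, unadjusted p = 0.101 and adjusted p = 1.00 by limma), with an exact permutation p of 0.0857. The transgenic array was the lower on 4 of 4 slides, by 0.04 to 0.29 on the log2 scale, which held for 4.43% of all tested probes, and 5.5% were higher on all slides. Without wild-type replicate 4 the unadjusted p was 0.044 by limma, with a log2 fold change of -0.27.

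Probe 2 of Msr1 had a difference of the other sign. It was at -2.91, -2.92, -2.93 and -2.58 in wild-type mice and at -2.34, -2.32, -2.55 and -2.95 in transgenic mice. The lowest of the 8 values was that of transgenic replicate 4, while the other transgenic mice lay above all wild-type mice. Its log2 fold change was 0.30 (SE 0.15, 95% interval -0.03 to 0.63, unadjusted p = 0.0702 and adjusted p = 1.00 by limma; exact permutation p = 0.171). Over the 8 arrays the Pearson r of the 2 probes was -0.58, given as a description. All 3 probes were dim in the lungs, with signals over local background of 63 to 134 for probe 1, 23.5 to 60 for probe 2 and 8 to 22 for probe 3 in the sample channel. In the pool channel the same spots read 287 to 507, 441 to 773 and 100 to 202. Probe 3 was well above background on 0 of 8 arrays in the sample channel and on 8 of 8 in the pool channel, so it was not tested and has no fold change.

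Of the class B receptors, Scarb1 encodes the high density lipoprotein receptor SR-BI, which takes up cholesteryl esters. It was at -0.67, -0.60, -1.09 and -0.50 in wild-type mice and at -0.59, -0.64, -0.60 and -0.58 in transgenic mice. Wild-type replicate 3 was the lowest, the transgenic mice lay close together, with an SD of 0.026 against 0.26 in wild-type mice, and the genotypes overlapped. The log2 fold change was 0.11 (SE 0.13, 95% interval -0.17 to 0.39, unadjusted p = 0.406 by limma and 0.657 by exact permutation), and it was -0.01 without wild-type replicate 3. Cd36 encodes a receptor for oxidized lipoprotein, long-chain fatty acids and thrombospondin that is also made by capillary endothelium and fat cells. Its spot was flagged and left out on wild-type replicate 2 and transgenic replicate 4, and the remaining mice were at -0.34, -0.73 and -0.08 in wild-type and -0.50, -0.14 and -0.33 in transgenic lungs. The wild-type values span those of the transgenic mice. The log2 fold change was 0.06 (SE 0.18, 95% interval -0.35 to 0.46, unadjusted p = 0.759 by limma) over 3 mice of each genotype, for which the exact permutation p was 0.90 and can go no lower than 0.10. On the 2 slides with a value for both genotypes the transgenic mouse was the lower, by 0.25 and 0.17, and with the slide as a block the log2 fold change was -0.21 (SE 0.14, unadjusted p = 0.189 by limma).

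Mrc1 encodes the mannose receptor CD206, a lectin that clears glycoproteins and marks tissue macrophages. It was at -0.68, -0.26, -0.54 and -1.32 in wild-type mice and at -1.16, -0.19, -0.61 and -0.87 in transgenic mice. The means were nearly equal, at -0.70 ± 0.45 (SD, n = 4) and -0.71 ± 0.41 (SD, n = 4), while the highest mouse lay 2.18-fold above the lowest. The log2 fold change was -0.01 (SE 0.24, unadjusted p = 0.971 by limma and 0.971 by exact permutation). The 95% interval ran from 0.692-fold to 1.43-fold. The difference was -0.41 within the first scan day and 0.39 within the second, with 2 mice of each genotype per day.

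Cd163, which encodes the receptor for complexes of hemoglobin and haptoglobin, was at 0.20, 0.23, -0.44 and -0.89 in wild-type mice. In transgenic mice it was at -0.64, 0.21, -0.40 and -0.77. The values fell into mice near 0.2 and mice well below 0, with both genotypes in each. The log2 fold change was -0.17 (SE 0.27, 95% interval -0.76 to 0.41, unadjusted p = 0.529 by limma and 0.714 by exact permutation), the widest interval of the 10 tested probes. As for Mrc1, the difference turned with the scan day, from -0.58 on the first to 0.23 on the second.

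Stab1 encodes stabilin-1, an endocytic receptor of macrophages and sinusoidal endothelium that clears SPARC. Probe 1, the brighter of 2, was flagged on wild-type replicates 2 and 3 and transgenic replicate 3, and read -0.08 and 0.10 in the wild-type mice left and 0.12, -0.01 and 0.02 in the transgenic mice left. Probe 2 had values on all arrays, at -0.06, 0.15, -0.35 and 0.06 in wild-type and -0.17, 0.14, -0.33 and -0.08 in transgenic mice. Both probes lay near the pool and the genotypes overlapped. The log2 fold changes were 0.03 (SE 0.14) and -0.06 (SE 0.14), with unadjusted p of 0.833 and 0.663 by limma.

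Cd68 encodes macrosialin, a heavily glycosylated protein of late endosomes that is used as a general macrophage marker. It was at -2.11, -1.70, -2.20 and -2.03 in wild-type mice and at -2.16, -1.61, -2.11 and -2.43 in transgenic mice. The highest and the lowest value were those of transgenic replicates 2 and 4, and the wild-type mice lay between. The log2 fold change was -0.07 (SE 0.17, 95% interval -0.45 to 0.30, unadjusted p = 0.679 by limma and 0.743 by exact permutation). Within the first and the second scan day the difference was -0.14 and -0.0009.

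Over the 10 tested probes, 5 had a higher and 5 a lower mean in transgenic lungs, and of all tested probes 50.4% were higher. None passed an adjusted p of 0.05 by limma (0 of 32653 probes on the array did, 0%), and 0 had an unadjusted p under 0.05, against 2.09% of all probes. The genotypes overlapped for 10 of 10, while they did not overlap for 1.98% of all tested probes. The 95% interval lay within 1.5-fold in both directions for 8 probes. It reached past 1.5-fold for Cd163 and, upward, for probe 2 of Msr1, and for all 10 it lay within 2-fold.

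**Figure D2:**
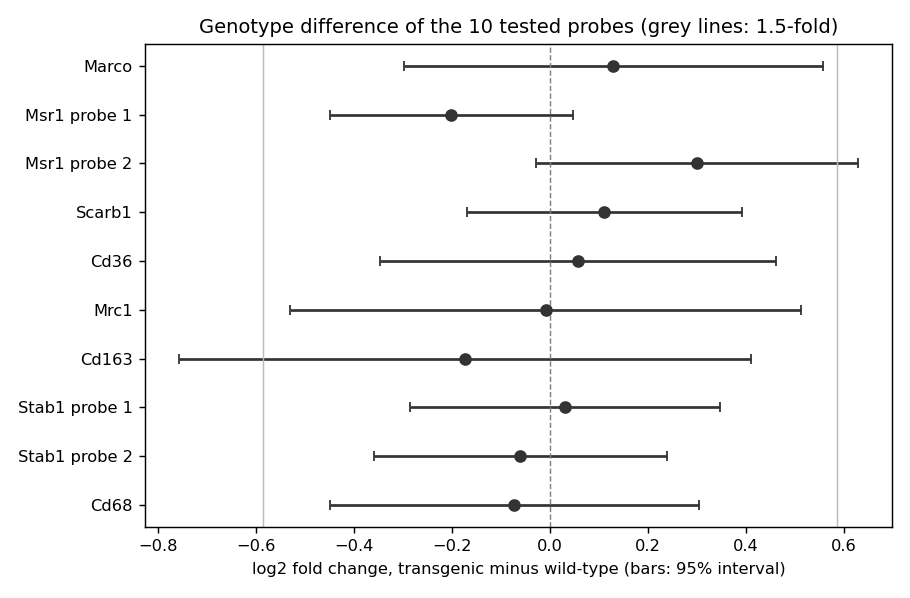
Log2 fold change of transgenic over wild-type lungs (horizontal axis) with its 95% interval by limma for the 10 tested probes of the receptor genes. The grey lines mark 1.5-fold in either direction. All 10 intervals include 0, and the probes 1 and 2 of Msr1, at -0.20 and 0.30, point in opposite directions.

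Cd68 and Msr1 stood far below the pool in every mouse. Of the 10 tested probes 9 had a mean below the pool, against 48.9% of all tested probes, and 6 were below it on every array with a value, against 20.4%. Cd68 lay 4.12-fold below the pool, at -2.04 ± 0.27 (SD, n = 8), which is the 0.113th percentile of all tested probes. The ratio of Msr1 was 2.94-fold below the pool by probe 1 and 6.45-fold below it by probe 2, at -1.56 ± 0.17 (SD, n = 8) and -2.69 ± 0.27 (SD, n = 8), the 0.349th and the 0.0306th percentile. These 3 probes were under 0.5 times the pool on every array, which held for 0.389% of all tested probes. The fold of the dim Msr1 depends on the processing, since its probe 1 was at -2.01 with an offset of 0 in place of 50 in the background correction. Mrc1 and Scarb1 were 1.63-fold and 1.58-fold below the pool and below it in 8 of 8 mice. Cd36, Cd163 and Marco had means of -0.35, -0.31 and -0.24, and the means of the Stab1 probes, 0.03 and -0.08, were within their SD of 0.08 and 0.19 of the pool.

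The same was seen for other macrophage genes, given here for all listed macrophage markers whose brightest probe had a mean under 0.5 times the pool, and so chosen by that value. C1qb, C1qa and C1qc, the chains of complement C1q, had mean log2 ratios of -2.09, -1.98 and -1.70. The Fc receptors Fcgr3 and Fcgr1 had means of -1.95 and -1.72, and Lgals3, which encodes a lectin, of -1.16. Of the 18 tested probes of the macrophage marker list 7, or 38.9%, were under 0.5 times the pool on all arrays. The other macrophage markers were at -0.96 (Adgre1), -0.93 (Mpeg1), -0.25 (Csf1r), -0.14 (Cd14) and 0.52 (Lyz2) by their brightest probes, and second probes of Adgre1 and Mpeg1 were at -1.60 and -1.10. Further probes of Csf1r were at -0.46 and -0.82, that of Lyz2 at -0.03, and those of Fcgr1 and Fcgr3 at -0.96 and -2.09. The low ratio was not limited to macrophage markers. A mean under 0.5 times the pool, which 1.23% of all tested probes had, was also found by the brightest probe for 4 of 8 monocyte and neutrophil genes, S100a8 at -1.99, S100a9 at -1.70, Retnlg at -1.31 and Ccr2 at -1.16, although 0 of the 9 probes of that list were under it on all arrays. It was found too for Ms4a7 of the interstitial macrophage list, at -1.60, and for Ch25h, which makes an oxysterol, at -1.47. Siglecf and Fabp1 of the alveolar macrophage list were above the pool, at 0.49 and 0.37, and none of the 10 alveolar macrophage genes had a mean under 0.5 times the pool. By their brightest probes the other genes of that list were below it, with Ear1 the lowest at -0.83. The probes of Itgax differed, at -0.76 for the brightest and 0.86 for the other. Of the 12 probes of the list 9 had a mean below the pool, and the median was -0.25. According to the methods the pool held the same amount of RNA of every sample, and the labels call it pooled whole mouse lung. In an equal pool of these 8 lungs, and without an effect of the dye, the mean log2 ratio of a gene would lie near 0. The values of these genes were far from 0, so a level below the pool is a ratio to this reference and no measure of how much RNA the lungs held. Since the pool was in Cy3 on all arrays, an effect of the dye on a probe and the makeup of the pool cannot be told apart. The genotypes share both, and whether either enters their comparison was not tested. Lyz2, for example, had a log2 fold change of -0.76 by the ratio and of -0.27 in the sample channel alone.

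**Figure D3:**
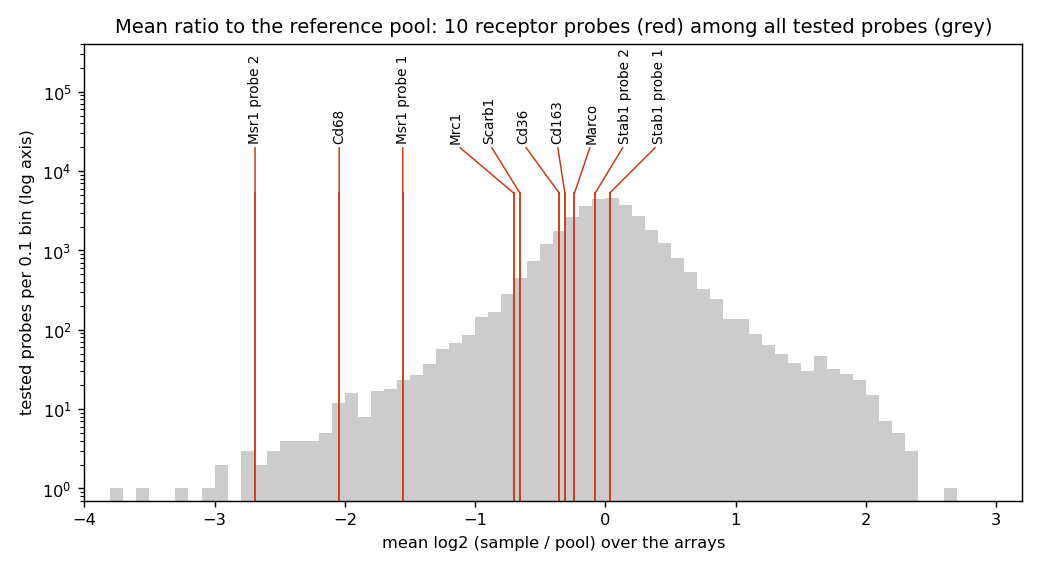
Number of tested probes (vertical axis, log scale) by mean log2 ratio of sample over pool over the arrays (horizontal axis, bins of 0.1), with red lines at the 10 tested probes of the receptor genes. Msr1 and Cd68, at -2.69, -2.04 and -1.56, lie in the thin left tail, and the Stab1 probes lie near the center.

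Among mice of the same genotype the receptors did not vary alike. The pooled SD within genotypes was 0.49 for Cd163 and 0.43 for Mrc1, at the 98.6th and the 97.5th percentile of all tested probes, and 0.34 for Marco, at the 92.7th. It was 0.29 for Cd68 and 0.27 for Cd36, at the 85.7th and the 81.4th percentile, and 0.18 for Scarb1, at the 52.7th. The probes of Msr1 had 0.14 and 0.24, at the 31.4th and the 74.1st percentile, and those of Stab1 0.09 and 0.21, at the 7.65th and the 62.1st. Since the pool was hybridized 8 times, the spread of its channel holds no difference between mice. For Cd163 the SD over the 8 arrays was 0.47 in the sample channel and 0.15 in the pool channel, and for Mrc1 it was 0.37 and 0.18, beside medians of 0.24 and 0.18 over all tested probes. For Marco it was 0.28 and 0.24 and for Cd68 0.23 and 0.20, so that for these genes the channels were closer in spread.

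Mrc1 and Cd163 had the highest Pearson r of the receptor pairs with the processing used here, while with median-centring in place of loess it was that of Cd36 and Scarb1, at 0.93 against 0.87. Both were high in wild-type replicate 2 and transgenic replicate 2, which share a slide, and low in wild-type replicate 4, transgenic replicate 1 and transgenic replicate 4. Over 8 arrays Pearson's r was 0.83 (exact permutation p = 0.0132, two-sided) and Spearman's rho 0.86 (exact permutation p = 0.0107). Among the 21 pairs of receptor genes that had at least 6 arrays in common, the Benjamini-Hochberg adjusted p was 0.278 for r and 0.225 for rho, so the relation failed the correction, and by rho Cd36 and Cd68, at 0.89 over 6 arrays, lay above it. Without the 2 mice furthest from the median of Mrc1, r was 0.73, and with the means of genotype and scan day taken out it was 0.84. A scan day held 4 arrays, too few for a value within it. The next pair, Cd36 and Scarb1, had r = 0.81 over 6 arrays (exact permutation p = 0.0431, adjusted 0.417). It was 0.85 with the means of genotype and scan day taken out, and without 2 mice, on the 4 arrays left, it was -0.54.

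**Figure D4:**
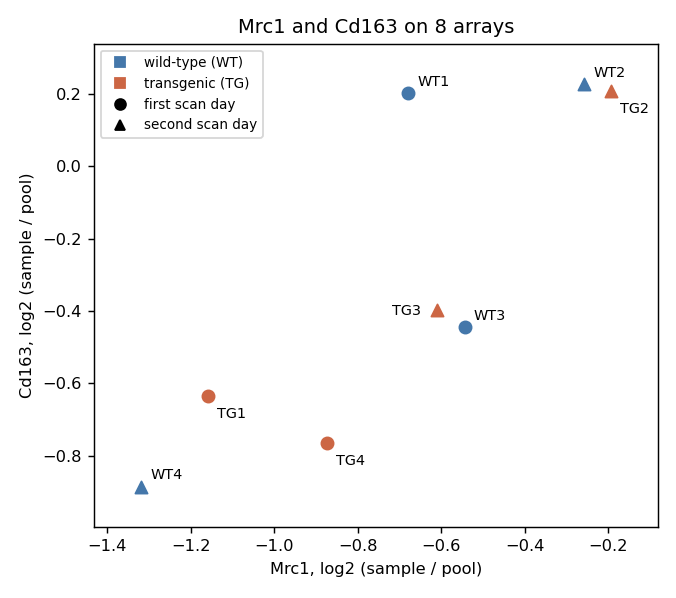
Log2 ratio of sample over pool of Cd163 (vertical axis) against that of Mrc1 (horizontal axis) on the 8 arrays, 1 point per mouse, colored by genotype and shaped by scan day. The mice high in both genes are replicate 2 of each genotype, which share a slide and the second scan day, while the low end holds both genotypes and both scan days, and r was 0.83.

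By likeness over the 8 arrays, the genes closest to Mrc1 among 25898 probes with values on all arrays were Ear10 of the eosinophil-associated ribonucleases (r = 0.99), the actin regulator Eps8 (r = 0.98) and the class II antigen chain H2-Ab1 (r = 0.97). Those closest to Cd163 were Usp3, Cog1 and again H2-Ab1 (r = 0.94 each). Marco was most like Kcnk12 (r = 0.98), Cetn4 (r = 0.97) and Aox1 (r = 0.97), Cd68 most like Gphn (r = 0.97), Mad2l1 (r = 0.96) and Cyp3a16 (r = 0.96), and probe 1 of Msr1 most like St8sia3, Cyp2d10 and Dnajb6 (r = 0.96 each). Scarb1 was most like the monocyte gene Ly6c2 (r = 0.99), Arl15 (r = 0.97) and Rnd2 (r = 0.97). Such values are the top of many comparisons over 8 points that share arrays and scan days, and are given as a description. Cd36, over its 6 arrays, was most like Scube1, Pyroxd1 and Ikzf3 (r = 0.99 each), and probe 1 of Stab1, with 5 arrays, was left out.

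The other genes of scavenging were taken from lists of receptors, ligands and the steps after uptake. Of 20 other scavenger receptor genes 17 were tested, with 22 probes. The difference was positive for 10 and negative for 12, and 0 had an unadjusted p under 0.05, against 2.09% of all tested probes. The median log2 fold change was -0.0048, beside 0.00099 over all tested probes. That median was 0.046 without transgenic replicate 1, -0.012 without wild-type replicate 3 and -0.098 with median-centring in place of loess. The highest were Clec7a, the beta-glucan receptor dectin-1, at 0.24 (SE 0.15), and Scarf1, at 0.21 (SE 0.12). The lowest were Ager, at -0.27 (SE 0.28), and the lysosomal Scarb2, at -0.18 (SE 0.22) over 2 wild-type and 2 transgenic mice. Clec7a was also far below the pool, at -1.30.

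On the list of receptor ligands, 10 of 12 genes were tested with 11 probes, of which 2 were higher and 9 lower, and Scgb3a2 was the highest. The list also holds Scgb3a1 and Scgb1a1, of the same family as Scgb3a2, whose binding to these receptors was not tested. Sftpa1 and Sftpd encode the lung collectins, surfactant proteins A and D, which type II cells secrete and which opsonize particles. Their log2 fold changes were -0.75 (SE 0.29, unadjusted p = 0.0238 by limma) and -0.47 (SE 0.16, unadjusted p = 0.0133 by limma), with an adjusted p of 1.00. Scgb3a1 was at -0.71 (SE 0.49) and Tnfsf12, whose product TWEAK binds CD163, at 0.07 (SE 0.19). Most type II cell markers had lower means, a list that also holds Sftpa1. Of its 14 tested probes 13 were lower, 4 of them, Sftpa1 included, with an unadjusted p under 0.05, where 0.974% of all tested probes were lower at that p, and the median log2 fold change was -0.50. Without wild-type replicate 3 the median was -0.20 and without transgenic replicate 1 it was -0.29. Lyz1 at -1.21 and Lamp3 at -0.96 had the lowest values, Lyz1 with values on 4 wild-type and 2 transgenic arrays. The value of Lamp3 is that of its brightest probe. Further probes of Lamp3 were at -0.50 and 0.11, the last being the only higher probe of the list. The mean log2 ratio of this list lay between 0.05 and 1.16 in wild-type and between -0.29 and 0.35 in transgenic mice, and its part in the values of Sftpa1 and Sftpd was not tested.

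**Figure D5:**
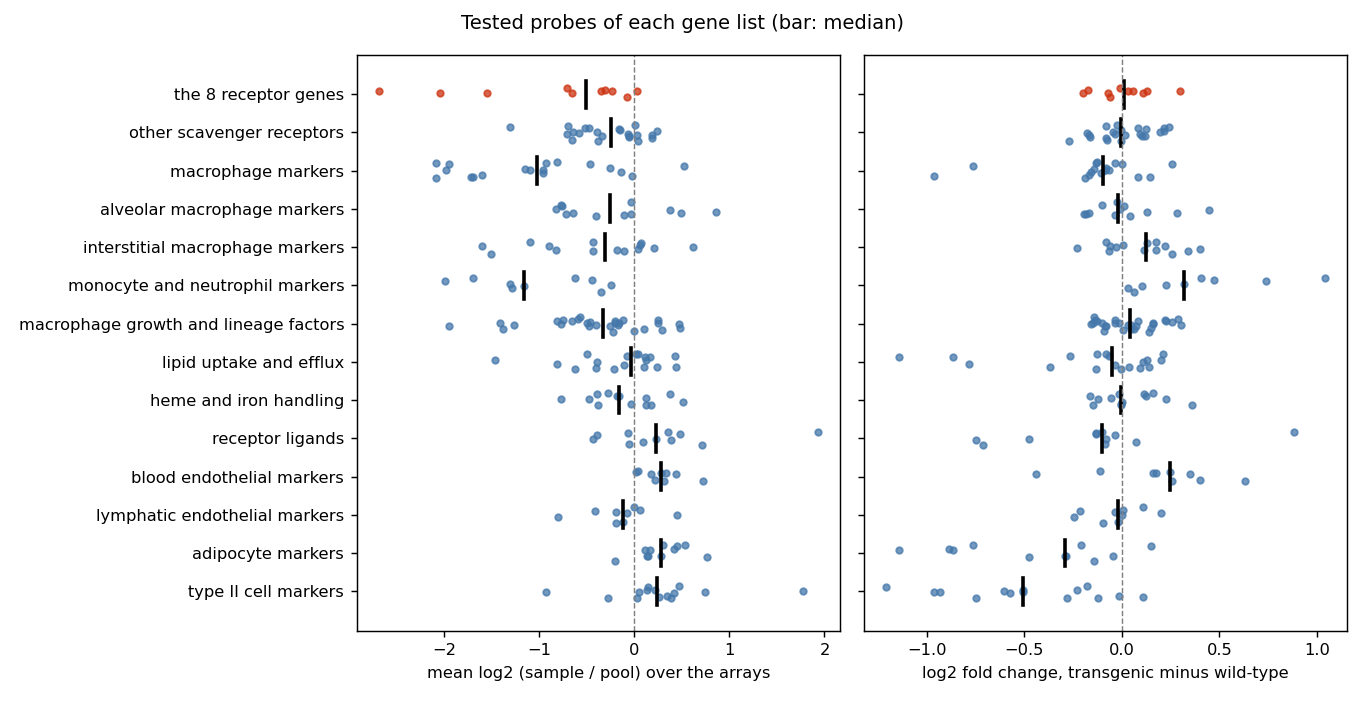
Mean log2 ratio of sample over pool (left) and log2 fold change of transgenic over wild-type (right) of the tested probes of the 8 receptor genes (red) and of 13 lists of related genes and cell type markers (blue), 1 point per probe with the median as a black bar. In the left panel the macrophage markers have a median of -1.03, and in the right panel the receptor genes center on 0.01 while the type II cell markers center on -0.50.

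Of the genes of lipid uptake and efflux, 14 of 16 were tested with 18 probes, 7 higher and 11 lower, and a median log2 fold change of -0.05 (0.025 without transgenic replicate 1, -0.13 without transgenic replicate 2 and 0.032 with array weights). The 4 probes with an unadjusted p under 0.05 were all lower, beside 0.974% of all tested probes. They were those of Lpl, the lipoprotein lipase, at -0.78 (SE 0.20, unadjusted p = 0.0039 by limma), of Abca1, the cholesterol exporter, at -0.37 (SE 0.13, unadjusted p = 0.0179), and 2 of Fabp4, a fatty acid binding protein, which was at -0.87 (SE 0.34, unadjusted p = 0.027) by its brighter probe. Cpt1a and Ch25h, which were highest, were at 0.21 (SE 0.14) and 0.20 (SE 0.14). Lpl had values on 2 wild-type and 3 transgenic arrays, and none passed the adjusted threshold. Fat cells make Fabp4 and Lpl too, and the adipocyte markers, which include the 2 probes of Fabp4, had 10 of 11 probes lower (8 of 9 without Fabp4), a median of -0.29 (-0.14 without transgenic replicate 4) and Adipoq at -0.89 (unadjusted p = 0.0049 by limma). The mean log2 ratio of the adipocyte list lay between 0.27 and 0.78 in wild-type and between -0.49 and 0.40 in transgenic mice, and its part in the lipid genes was not tested.

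Of 10 genes of heme and iron handling, the route after CD163, all were tested, with 13 probes, 5 higher and 8 lower. Of these probes 0 had an unadjusted p under 0.05, against 2.09% of all tested probes. Hmox1, the heme oxygenase, was at 0.36 (SE 0.36) over 2 wild-type and 3 transgenic mice, Slc11a1 at 0.23 (SE 0.17), Hpx at -0.16 (SE 0.19) and Blvrb at -0.12 (SE 0.13). The other tested probe of Hmox1 had the opposite sign, at -0.15. Of the 28 probes of macrophage growth and lineage factors, 16 were higher and 12 lower, the median was 0.04, and 3 were higher at an unadjusted p under 0.05, where 1.12% of all tested probes were. Csf1, the macrophage growth factor, was at 0.22 (SE 0.10, unadjusted p = 0.0432 by limma) and Irf8 at 0.30 (SE 0.13, unadjusted p = 0.0346 by limma). Csf2rb and Nfe2l2 were lowest, at -0.16 (SE 0.16) and -0.14 (SE 0.14). The lineage factor Spi1, which encodes PU.1, was far below the pool, at -1.95.

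No marker of the cells that carry the receptors passed the adjusted threshold. Of 18 macrophage marker probes 3 were higher and 15 lower, and the median log2 fold change was -0.10, or 0.0073 without transgenic replicate 4 and -0.17 without transgenic replicate 2. The mean log2 ratio of the list lay between -1.10 and -0.87 in wild-type and between -1.42 and -0.91 in transgenic mice, so the ranges overlapped. Lyz2, at -0.76 (SE 0.31, unadjusted p = 0.0298 by limma), was the only probe of the list with an unadjusted p under 0.05, and it may share signal with Lyz1, a near-identical gene on the type II cell list. In the sample channel alone Lyz2 was at -0.27 (unadjusted p = 0.144 by limma). Of 12 alveolar macrophage probes 5 were higher and 7 lower (median -0.02, or -0.17 without wild-type replicate 4 and 0.065 without transgenic replicate 4), and Siglecf at 0.28 and Fabp1 at 0.45 had unadjusted p of 0.0184 and 0.0362 by limma. Of 14 interstitial macrophage probes 9 were higher and 5 lower (median 0.12, from 0.065 to 0.18 with each mouse left out in turn and -0.0042 with median-centring in place of loess), and Tmem119 was at 0.40 (unadjusted p = 0.0119 by limma).

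All 9 monocyte and neutrophil probes had higher means in transgenic lungs (median log2 fold change 0.32). The median was 0.12 and 0.64 without wild-type replicates 3 and 4, and 0.035 and 0.60 without transgenic replicates 1 and 4. The mean log2 ratio of that list ran from -1.83 to -0.19 in wild-type and from -1.68 to 0.11 in transgenic mice. Of the 9 blood endothelial probes 7 were higher, with a median of 0.25 (0.043 without wild-type replicate 3 and 0.14 without transgenic replicate 4), Kdr at 0.63 (unadjusted p = 0.0098 by limma) and Tek at -0.44 (unadjusted p = 0.0113 by limma). The 9 lymphatic endothelial probes had a median of -0.02. The part of these cells in the values of Cd36 and Stab1, which endothelium also makes, was not tested. No probe of any list had an adjusted p under 0.05.

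Most unadjusted calls of the single genes named above did not hold under all of the 13 other ways of processing or testing. An unadjusted p under 0.05 was kept by Irf8 in 5 of 13, by Csf1 and Fabp1 in 6, by Siglecf and Sftpa1 in 8, by Lyz2 and Lamp3 in 9 and by Lpl and Fabp4 in 10. Tek kept it in 11, Kdr, Abca1, Sftpd and Lyz1 in 12, and Adipoq, Tmem119 and Scgb3a2 in 13 of 13. Over these alternatives Csf1 ran from 0.087 to 0.26, Siglecf from 0.12 to 0.38, Irf8 from 0.17 to 0.31, Lyz2 from -0.80 to -0.27, Sftpa1 from -0.80 to -0.44, Lamp3 from -1.03 to -0.64, Tek from -0.59 to -0.25, Abca1 from -0.46 to -0.24, Lpl from -0.97 to -0.47 and Lyz1 from -1.61 to -0.73.

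Leaving out 1 mouse ended many of these calls. An unadjusted p under 0.05 was kept by Csf1 and Irf8 in 3 of the 8 fits that each left out 1 mouse, by Fabp1 and Lyz2 in 4, by Sftpa1 and Lamp3 in 5 and by Siglecf, Fabp4 and Abca1 in 6. Adipoq, Tek, Kdr, Tmem119, Sftpd and Scgb3a2 kept it in all 8, and Lpl and Lyz1 in the 6 fits that were possible. Without wild-type replicate 3 Sftpa1 was at -0.44, Lamp3 at -0.57 and Lyz2 at -0.47. Without transgenic replicate 1 Lamp3 was at -0.65, without transgenic replicate 2 Fabp1 was at 0.30, and without transgenic replicate 4 Fabp4 was at -0.51.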

How the data were processed

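Labels and methods name 4 individual mice per genotype, and samples were grouped by the genotype in the labels. For each array the authors deposited Agilent Feature Extraction output (version 10.10.1.1 in the file header, 11.0.1.1 in the submitters' processing notes) with median intensity of spot and local background, processed intensity, and the log10 ratio of processed Cy5 over processed Cy3. A matrix of log2 ratios deposited with them lay within 0.001 of the processed ratios for 39811 of 39811 probes with a single spot. The unit, direction and centring of the matrix follow from this match, and its column medians run from -0.0505 to 0.0365. All 8 matrix columns were mapped, and 0 were left out. The methods name GeneSpring and a t-test.

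Here the median intensities were used, in R 4.3.3 with limma 3.58.1. Background was corrected by normexp with an offset of 50, fitted on spots without an outlier, background non-uniformity or manual flag, flagged and control spots were left out, and ratios were normalized by loess (span 0.3). The first fit used all spots and was changed after its results were seen; it is kept as an alternative. limma's moderated two-sided test with Benjamini-Hochberg adjustment over all tested probes was used, beside exact permutation of genotypes. Fits were tested on simulated data. Symbols came from the matrix for 33870 probes and from the RefSeq annotation by accession for 933, 3318 were updated, and 6371 probes had none.

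Where a gene had several probes the brightest tested one stands for it, and Msr1 and Stab1 are also described by each probe, while correlations, likeness and alternatives use their probe 1. From each list of pathway genes the 2 highest and the 2 lowest genes are named, and from all lists every gene with an unadjusted p under 0.05, except that some list genes are not reported here. The genes and lists were chosen with earlier results of these data known. Alternatives changed background correction, normalization, channel, filter, blocking, array weights, test and probe summary, used the matrix, or left out each mouse. The number of arrays limits the precision. Replicate numbers were not taken as pairs, and the deviations of mice with the same number correlated at 0.32, 0.25, -0.08 and -0.21. The first 2 of these pairs, replicates 1 and 2, also share a slide, while replicates 3 and 4 do not. The deviations of mice on the same slide correlated at 0.30, 0.32, 0.25 and 0.07, and the slide as a block was an alternative. Figures were made in matplotlib 3.10.9 under Python 3.11.15.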

Additional observations from a re-analysis of the deposited data

Results flagged for a closer look

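Among 18 groups of 4 mice, Msr1 probe 2 in wild-type held a mouse far from the others. Wild-type replicate 4 was at -2.585 on the log2 scale, while the other 3 lay between -2.93 and -2.91, and the gap was 0.95 of the range of the group, above Dixon's 95% critical value. About 1 in 20 such groups is picked out when nothing differs.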

How the results depend on the processing

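Of 174 alternative fits of the receptor genes, 0 gave an adjusted p under 0.05 by limma, the lowest being 0.994, and 1 gave an unadjusted p under 0.05. Apart from leaving out mice, 194 of 231 alternative values of the comparisons kept their direction and side of the threshold or stayed within 1.5 times for counts. The genotype difference of a receptor gene took the other sign in 27 of the 174 fits, and the cause was not tested. Of these, 16 kept all mice and 11 left out 1 mouse. Mrc1 turned to 0.044 both with Agilent's processed signals and with the authors' matrix, to 0.089 with normexp fitted on all spots and to 0.22 with array weights. Stab1 turned to -0.065 with median-centring in place of loess, -0.0071 with all spots in the normexp fit, -0.11 in the sample channel alone, -0.022 with array weights and -0.034 with the median over its probes. In the other direction, Stab1 was at 0.22 on the authors' matrix and at 0.20 with the slide as a block. The latter rests on the 1 slide where its probe 1 had values for both genotypes. Msr1 turned to 0.19 with all spots and to 0.049 with the median of its probes, Marco to -0.0015 in the sample channel, Cd68 to 0.010 and Cd163 to 0.035 with array weights, and Cd36 to -0.21 with the slide and -0.064 with the scan day as a block. Among other genes, Tnfsf12 turned to -0.034 on the processed signals and the matrix, Hmox1 to -0.42 on the matrix and -0.0095 with slide or scan day as a block, Scarb2 to 0.24 with the slide block and 0.043 with array weights, and Ch25h and Clec7a to -0.060 and -0.023 with all spots.

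The mean log2 ratio of Msr1 to the pool was -2.01 at a normexp offset of 0, -2.05 on the processed signals and the matrix, -1.07 with all spots and -2.12 with the median of its probes. That of Cd68 was -1.74 with all spots, and that of Stab1 was -0.056 on the matrix, -0.14 with median-centring and -0.062 with the median of its probes. These pool alternatives were added after seeing the data.

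The 684 probes with an unadjusted p under 0.05 became 391 with all spots, 298 in the sample channel, 1215 under the slide block and 1151 with array weights. The 75 of them past 1.5-fold became 221 at offset 0, 371 on the processed signals, 360 on the matrix, 33 with all spots, 136 with the slide block, 49 with array weights and 27 with the methods' t-test. With the replicate number as a block they were 130, and Marco, for example, had 0.13 and Msr1 -0.20 under this block. It matches the slides only for replicates 1 and 2. The median log2 fold change of the adipocyte markers ran from -0.50 (offset 0) to -0.24 (all spots), of the interstitial macrophage markers from -0.0042 (median-centring) to 0.24 (matrix), of the lineage factors from -0.057 (all spots) to 0.061 and of the alveolar macrophage markers from -0.096 to 0.033, the latter with array weights. Array weights also gave 0.14 for the monocyte and neutrophil, 0.12 for the blood endothelial, -0.24 for the type II cell and -0.039 for the macrophage markers.

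With each mouse left out in turn, Marco ran from -0.044 (without transgenic replicate 1) to 0.27, Cd36 from -0.12 (without wild-type replicate 3) to 0.21, Cd68 from -0.23 to 0.045 (without transgenic replicate 4) and Mrc1 from -0.22 to 0.14 (without transgenic replicate 1). Msr1 ran from -0.27 to -0.13 and Cd163 from -0.39 (without wild-type replicate 4) to -0.022 (without wild-type replicate 2). Scarb1 ran from -0.015 (without wild-type replicate 3) to 0.18, Stab1 from -0.0088 (without transgenic replicate 1) to 0.055, Tnfsf12 from -0.082 to 0.23, Scgb3a1 from -1.24 (without transgenic replicate 1) to -0.23 (without transgenic replicate 4), Ager from -0.43 to 0.083 and Hmox1 from -0.0095 to 0.58. The count at an unadjusted p under 0.05 ran from 485 to 1175, past 1.5 times the count without wild-type replicate 4 (1175) and transgenic replicates 1 (1073) and 4 (1037). The count past 1.5-fold ran from 49 to 167, with 49 without wild-type replicate 3, 167 without wild-type replicate 4 and 116 and 153 without transgenic replicates 3 and 4. Receptor genes at an unadjusted p under 0.05 ran from 0 to 1, which was Msr1 without wild-type replicate 4. The r of Mrc1 and Cd163 ran from 0.76, without wild-type replicate 4, to 0.92. The dim signals of Msr1, the 6 arrays of Cd36 and the 5 of probe 1 of Stab1 limit what was measured for them.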
